A study of Homo sapiens with 12 samples.

Results

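The aminoacyl-tRNA synthetase genes, which encode the enzymes that load amino acids onto tRNAs, were followed in HCT116 cells. The members were chosen by gene symbol, as 20 genes for cytosolic enzymes and 16 genes for mitochondrial enzymes, and all 36 were found among the 25733 genes of the deposited table. HCT116 is an established human colon carcinoma line. Bulk RNA sequencing covered 4 groups of 3 libraries, numbered 1 to 3 in the labels. Control cells were untreated, another group received NH4Cl (ammonium chloride) at 10 mM for 24 h, and another received TGF-β at 200 pM for 1 h. The last group received both agents, with TGF-β added after 23 h of NH4Cl. The comparisons ask what ammonium did to these transcripts, alone and beside TGF-β. Nothing in the labels says whether the 3 libraries of a group came from separate cultures, so each p-value measures only the spread between these samples.

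Each library held between 14807630 and 18191998 reads on genes, and the 36 members took between 0.448% and 0.488% of them. The library numbered 3 stood apart from libraries 1 and 2 in every group. The mean chi-square per gene between recovered read counts was 1.76 to 5.02 between replicates 1 and 2, and 25.4 to 36.3 between replicate 3 and either of them. Reads on genes of the mitochondrial genome were 4.50% to 5.12% of the total in the 4 libraries numbered 3 and 2.46% to 3.18% in the other 8. Results are therefore given with these libraries and without them, and with the replicate number as a block in the model.

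The label of the cells was checked against marker genes. All 9 epithelial markers were present in the table, and their summed FPKM (the deposited unit, fragments scaled by gene length and by the library's total) was 2529, 2419 and 3329 in control libraries 1, 2 and 3. The sums were 2510, 2437 and 3430 with TGF-β, 2287, 2312 and 2909 with NH4Cl, and 2498, 2380 and 3027 with both agents. KRT18, a keratin of simple epithelia, was the most abundant with a control mean of 895 FPKM, and EPCAM had 243 FPKM. KRT8 had 878 and KRT19 had 621 FPKM, so keratins made up most of these sums. VIL1 had 84.8, CDH1 19.2 and CDX2 13.1 FPKM, while CDX1 had only 3.45 and LGALS4 only 1.20 FPKM. Of the 5 fibroblast markers, LUM had a control mean of 7.26 FPKM and COL1A1 had 1.60, while COL1A2, COL3A1 and DCN did not go above 0.046 FPKM in any library. Of the leukocyte markers, CD3E did not exceed 0.280 FPKM and CD79A did not exceed 0.896 FPKM, and PTPRC and CD68 were not analysed here. Among the 3 endothelial markers PECAM1 did not exceed 0.091 FPKM, CDH5 did not exceed 0.355 FPKM, and VWF had a control mean of 2.37 FPKM. By control means, the epithelial marker LGALS4 was below LUM, COL1A1 and VWF, and CDX1 was below LUM.

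Each synthetase recognises an amino acid and its matching tRNAs, and joins them so that the ribosome can read the codon. Cytosolic ribosomes and mitochondrial ribosomes draw on separate pools of loaded tRNA, and the enzymes for both pools are encoded in the nucleus. Several cytosolic enzymes sit together in a multi-synthetase complex held by scaffold proteins, and many cytosolic synthetase genes are known targets of ATF4, the transcription factor of the amino acid response.

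The cytosolic transcripts were the more abundant ones, with a median of 34.0 FPKM over the 20 genes, from 6.77 for CARS (cysteine) to 81.2 for GARS (glycine), each the mean of all 12 libraries. GARS and KARS encode the glycine and lysine enzymes of both compartments, and KARS had 59.1 FPKM. FARSA, the catalytic subunit for phenylalanine, had 80.2 FPKM, and its partner subunit FARSB had 24.9 FPKM. The 8 genes whose products sit in the multi-synthetase complex (DARS, EPRS, IARS, KARS, LARS, MARS, QARS and RARS) ranged from 27.9 FPKM for RARS to 59.1 FPKM for KARS. The other cytosolic members lay between CARS and GARS, among them SARS (serine) at 45.3, AARS (alanine) at 44.3, TARS (threonine) at 39.8 and NARS (asparagine) at 39.4 FPKM. VARS (valine) had 28.8, YARS (tyrosine) 23.97, WARS (tryptophan) 21.6 and HARS (histidine) 14.3 FPKM. Summed over the 20 genes, the level was between 731 and 812 FPKM in each library.

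The mitochondrial transcripts had a median of 7.34 FPKM over 16 genes and a summed level of 187 to 217 FPKM in each library. IARS2 (isoleucine) stood far above the rest with 76.5 FPKM, followed by YARS2 (tyrosine) with 21.3, RARS2 (arginine) with 18.4, NARS2 (asparagine) with 14.0 and TARS2 (threonine) with 13.7 FPKM. HARS2, MARS2, AARS2, LARS2, EARS2 and PARS2 lay between 9.87 and 5.29 FPKM. CARS2, VARS2, WARS2 and FARS2 lay between 4.90 and 2.55 FPKM. SARS2 (serine) was the lowest member with 0.793 FPKM, from 32 to 51 reads in a library, and was the only member under the minimum mean of 1 FPKM used for testing, so 35 members were tested among 12341 genes.

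**Figure D1:**
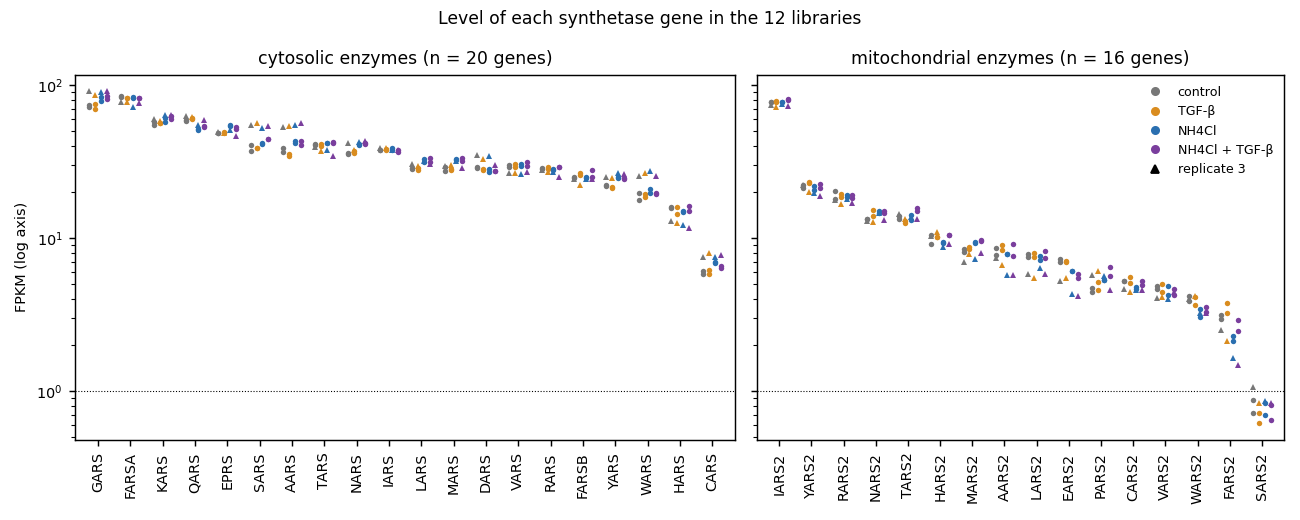
FPKM of each of the 36 members on a log axis, with a point for every library, triangles for replicate 3, colours for the 4 groups and a dotted line at 1 FPKM. Cytosolic medians sit above mitochondrial ones, with IARS2 the high exception and SARS2 the lowest.

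Set side by side for the same amino acid, the cytosolic gene of a pair was higher than the mitochondrial gene in all 12 libraries in 15 of 17 pairs. Phenylalanine enters with both cytosolic subunits, and EPRS, which carries the glutamate and proline activities in 1 protein, enters against EARS2 and against PARS2. The exceptions were isoleucine and tyrosine. IARS was 0.458 to 0.537 times as high as IARS2, and YARS was 0.917 to 1.39 times as high as YARS2. FPKM divides reads by the length of all annotated exons, so levels and ratios between genes rest on that length. YARS had 8212 exon bases and YARS2 2152, and their median reads were 3087 and 734. Median reads were 4351 for IARS and 5171 for IARS2, at 7401 and 4165 exon bases, so IARS2 was also the higher in reads. The widest gap was that of SARS over SARS2, a ratio between 46.0 and 68.1, and FARSA stood 21.9 to 51.5 times above FARS2. SARS2 had only 32 to 51 reads in a library and shares exon sequence with neighbours, as given next, so its ratio is uncertain.

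Some of these genes share exon sequence with neighbours, and the labels do not say whether reads were assigned by strand. SARS2 shares 46.2% of its exon length with AC011455.2 on the same strand and also overlaps MRPS12 on the opposite strand. VARS2 shares 22.0% of its exon length with GTF2H4 on the same strand, and GTF2H4 had a mean of 0.042 FPKM. How reads in shared exons were counted is not known. The levels and pair ratios of SARS2 and VARS2 may therefore not compare with the rest, which was not tested. HARS and HARS2, neighbours transcribed in opposite directions, share 437 bases, MARS shares 355 bases with DDIT3, EARS2 shares 370 with UBFD1, and YARS shares 396 with S100PBP. WARS2 shares 180 bases with the antisense transcript AL359915.2, whose mean was 1.53 FPKM.

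Promoter windows from RefSeq on GRCh38.p14, running from 250 bases before the start to 50 after it, were present for 30 of the 36 members. They were searched on both strands for TGATGNAA, the core of the amino acid response element that ATF4 binds together with C/EBP proteins. The letters occurred in 6 of 16 cytosolic windows (37.5%), in 1 of 14 mitochondrial windows (7.14%) and in 3.62% of all 35116 windows. The stricter form TGATGCAA occurred in 6 of 16 cytosolic windows, in 0 of 14 mitochondrial windows and in 0.866% of all windows. The 7 matches, in 6 cytosolic genes and in the mitochondrial YARS2, are shown on the strand of the gene so that the letters around them can be compared. The other 10 cytosolic and 13 mitochondrial windows had no match. Capitals mark the match, and TTGCATCA is the same motif read from the opposite strand.
AARS, chr16:70289675-70289704, minus strand: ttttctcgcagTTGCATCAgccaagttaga
CARS, chr11:3057407-3057436, minus strand: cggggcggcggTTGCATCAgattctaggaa
IARS, chr9:92293692-92293721, minus strand: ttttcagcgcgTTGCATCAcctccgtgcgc
MARS, chr12:57488053-57488082, plus strand: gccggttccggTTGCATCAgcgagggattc
NARS, chr18:57621804-57621833, minus strand: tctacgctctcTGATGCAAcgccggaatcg
TARS, chr5:33440956-33440985, plus strand: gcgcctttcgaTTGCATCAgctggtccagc
YARS2, chr12:32756076-32756105, minus strand: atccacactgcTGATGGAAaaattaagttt
The match began 2, 13 and 4 bases before the start in CARS, IARS and MARS, 187 bases before it in AARS, and 2 and 14 bases after it in TARS and NARS. A match is a string of letters and not evidence of binding in these cells.

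Base composition was close between the compartments. The median GC share was 61.8% in the 16 cytosolic windows, 62.3% in the 14 mitochondrial ones and 58.7% in all windows, and both member sets had a median of 23 CpG against 14. The starts of HARS and HARS2 lie 85 bases apart, so their windows share 184 bases.

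Replicate 3 differed from the other numbers upward in several cytosolic members and downward in most mitochondrial ones. Of the 35 tested members, 10 were highest in replicate 3 in all 4 groups, near the 25.0% of all genes tested that were, and all 10 were cytosolic (AARS, CARS, DARS, GARS, KARS, NARS, QARS, SARS, WARS and YARS). A further 15 were lowest in replicate 3 in all 4 groups, 9 of them mitochondrial, where 25.3% of all genes were. The largest excess of replicate 3 over the mean of replicates 1 and 2 was 0.47 on the log2 scale for AARS, then 0.42 for WARS and 0.40 for SARS, and the largest deficits were -0.40 for FARS2 and -0.37 for EARS2. After scaling every library to the same sum (TPM), on which the median of all genes in replicate 3 against replicates 1 and 2 was -0.17 where it was -0.01 on FPKM, 3 members remained highest in all 4 groups (AARS, SARS and WARS) and 24 were lowest. On TPM 1529 of 12341 genes were highest and 5663 were lowest in replicate 3 in all 4 groups. The total that divides FPKM was below the reads on genes in every library numbered 3, as with 14819142 against 15298508 in control replicate 3. It was above them in all others, as with 16932929 against 16647681 in control replicate 1. FPKM is thus scaled differently in the libraries numbered 3. Epithelial marker sums and the share of reads from the mitochondrial genome were also high in these libraries. The part of these features in the difference was not tested.

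**Figure D2:**
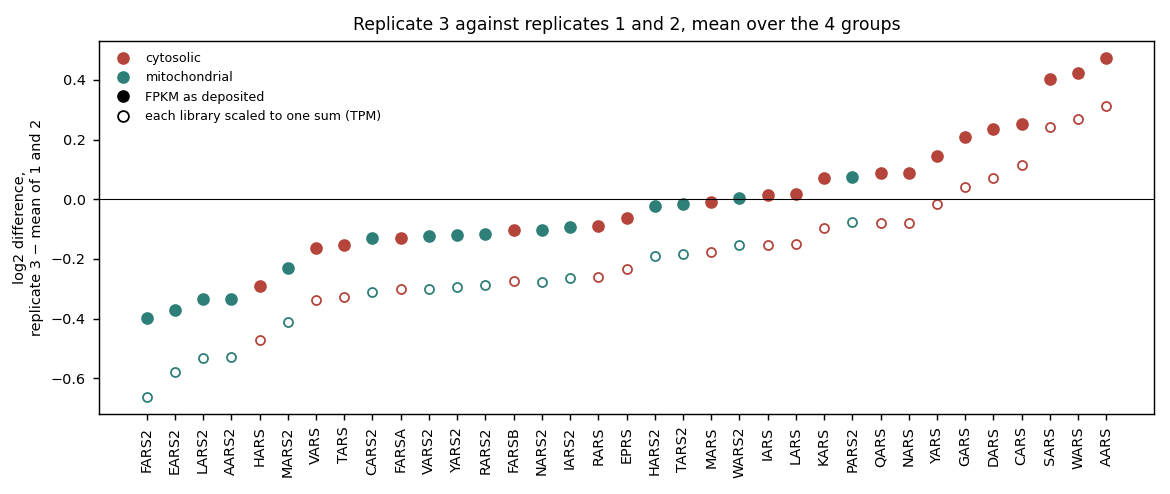
Log2 difference between replicate 3 and the mean of replicates 1 and 2, averaged over the 4 groups, for every tested member, with filled points for FPKM and open points after scaling to TPM. AARS, WARS and SARS lie highest and FARS2 and EARS2 lowest, and the open points lie lower.

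In ammonium-treated cells, 3 mitochondrial transcripts (FARS2, EARS2 and WARS2) and 1 cytosolic transcript (QARS) fell, and 1 cytosolic transcript (YARS) rose, when libraries of the same number were compared. These 5 were past the threshold with the replicate block both without and with TGF-β, and in each of them all 3 same-number pairs had the same direction in both comparisons. That shared direction follows largely from choosing them by these calls and is no further support. The block called 13.6% of all genes tested without TGF-β, 18.8% with it and 9.91% in both, so 5 of 35 members is near the background. Without the block none of them passed. In bulk RNA, fewer cells with a transcript and less of it per cell cannot be told apart.

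FARS2 (ENSG00000145982, chr6:5261044-5829192 on GRCh38) loads phenylalanine in mitochondria. Its level was 3.13, 2.97 and 2.48 FPKM in control libraries 1, 2 and 3, and 2.12, 2.29 and 1.63 FPKM with NH4Cl. It was 3.22, 3.75 and 2.12 FPKM with TGF-β and 2.47, 2.92 and 1.47 FPKM with both agents. Replicate 3 was the lowest library of every group, and the NH4Cl and control libraries did not overlap, while those with both agents overlapped those with TGF-β. With the block, the log2 change was -0.36 (SE 0.088, limma adjusted p = 0.0249) against control and -0.30 (SE 0.088, limma adjusted p = 0.0419) beside TGF-β. Without the block the adjusted p-values of limma were 0.547 and 0.573, and over all alternatives with a block they were 0.00405 to 0.207 and 0.00851 to 0.214. Without the block, the change beside TGF-β was -0.105 without replicate 3 of both agents, -0.17 without TGF-β replicate 2 and -0.47 without TGF-β replicate 3. The call against control was lost without NH4Cl replicate 1 or 2 or control replicate 1 or 3. The call beside TGF-β was lost without replicate 1 or 3 of both agents or TGF-β replicate 1 or 2, with limma adjusted p-values up to 0.105 and 0.158 when 1 library was left out.

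EARS2 (ENSG00000103356, chr16:23522014-23557731) loads glutamate in mitochondria, also onto the tRNA for glutamine, where an amidotransferase then converts it. Its level was 7.26, 7.01 and 5.23 FPKM in control libraries and 6.05, 6.10 and 4.32 FPKM with NH4Cl. It was 6.99, 7.10 and 5.44 FPKM with TGF-β and 5.47, 5.85 and 4.17 FPKM with both agents. Within every number the NH4Cl library was the lower, but the groups overlapped because replicate 3 was low in all 4. With the block, the log2 change was -0.21 (SE 0.043, limma adjusted p = 0.0125) against control and -0.29 (SE 0.043, limma adjusted p = 0.00214) beside TGF-β. Without it the adjusted p-values of limma were 0.739 and 0.497, and over the alternatives with a block they were 0.00929 to 0.142 and 0.000357 to 0.0514. Without the block, the change against control was -0.07 without NH4Cl replicate 3, -0.13 without control replicate 1 and -0.34 without control replicate 3, and the change beside TGF-β was -0.17 without replicate 3 of both agents. Leaving out control replicate 1 ended the call against control, with a limma adjusted p of 0.0691, and the call beside TGF-β was kept in all 6 fits that left out 1 library.

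WARS2 (ENSG00000116874, chr1:119031216-119140671) loads tryptophan in mitochondria. Its level was 4.16, 3.86 and 3.98 FPKM in control libraries and 3.45, 3.05 and 3.24 FPKM with NH4Cl. It was 4.13, 3.63 and 4.20 FPKM with TGF-β and 3.30, 3.55 and 3.21 FPKM with both agents. All 3 libraries with NH4Cl were below all 3 without it in both comparisons, and replicate 3 was not set apart. With the block, the log2 change was -0.24 (SE 0.0602, limma adjusted p = 0.0298) against control and -0.19 (SE 0.0602, limma adjusted p = 0.0497) beside TGF-β. Without the block the adjusted p-values of limma were 0.182 and 0.240, and over the alternatives with a block they were 0.0229 to 0.169 and 0.0222 to 0.290. Each of the 6 fits that left out 1 library lost the call against control, with limma adjusted p-values of 0.0652 to 0.119. Beside TGF-β, 5 of 6 did, all but the fit without replicate 2 of both agents, with values up to 0.167. Scaling to TPM also ended both calls.

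The 250 bases before the start of WARS2 are shown because its level moved without replicate 3 being set apart. The window lies at chr1:119140673-119140922 on the minus strand, and neither form of the motif occurs in it.
WARS2: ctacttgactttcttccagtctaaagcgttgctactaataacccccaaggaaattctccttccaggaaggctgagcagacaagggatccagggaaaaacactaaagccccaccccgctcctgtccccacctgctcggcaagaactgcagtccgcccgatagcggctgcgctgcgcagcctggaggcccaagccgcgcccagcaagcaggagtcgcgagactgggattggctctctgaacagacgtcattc

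QARS (ENSG00000172053, chr3:49095932-49105135) loads glutamine in the cytosol and belongs to the multi-synthetase complex. Its level was 58.6, 58.1 and 62.8 FPKM in control libraries and 51.0, 51.7 and 54.7 FPKM with NH4Cl. It was 60.9, 60.1 and 61.7 FPKM with TGF-β and 53.9, 53.2 and 58.5 FPKM with both agents. The groups did not overlap in either comparison, although replicate 3 was the highest library of each group. The mean fell by 12.3% against control and fell by 9.40% beside TGF-β. With the block, the log2 change was -0.19 (SE 0.0307, limma adjusted p = 0.0046) and -0.14 (SE 0.0307, limma adjusted p = 0.0125). Without the block the adjusted p-values of limma were 0.205 and 0.295, and over the alternatives with a block they were 0.00134 to 0.0997 and 0.00782 to 0.184. The call against control was kept in all 6 fits that left out 1 library. The call beside TGF-β was lost without replicate 2 of both agents or TGF-β replicate 1 or 2, with limma adjusted p-values up to 0.0606.

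YARS (ENSG00000134684, chr1:32775237-32818153) loads tyrosine in the cytosol. Its level was 22.1, 21.7 and 25.1 FPKM in control libraries and 24.5, 24.8 and 26.5 FPKM with NH4Cl. It was 21.5, 21.3 and 24.7 FPKM with TGF-β and 24.7, 24.4 and 26.3 FPKM with both agents. The NH4Cl library was the higher within every number, but control replicate 3 and TGF-β replicate 3 reached into the treated range. With the block, the log2 change was 0.13 (SE 0.0349, limma adjusted p = 0.0328) against control and 0.16 (SE 0.0349, limma adjusted p = 0.0136) beside TGF-β. Without the block the adjusted p-values of limma were 0.588 and 0.412, and over the alternatives with a block they were 0.0139 to 0.337 and 0.00406 to 0.169. The call against control was kept only in the fit without NH4Cl replicate 3, and the call beside TGF-β only in those without replicate 3 of either group. The highest limma adjusted p-values in these fits were 0.147 and 0.0634, and centring each library on its median also ended the call against control.

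**Figure D3:**
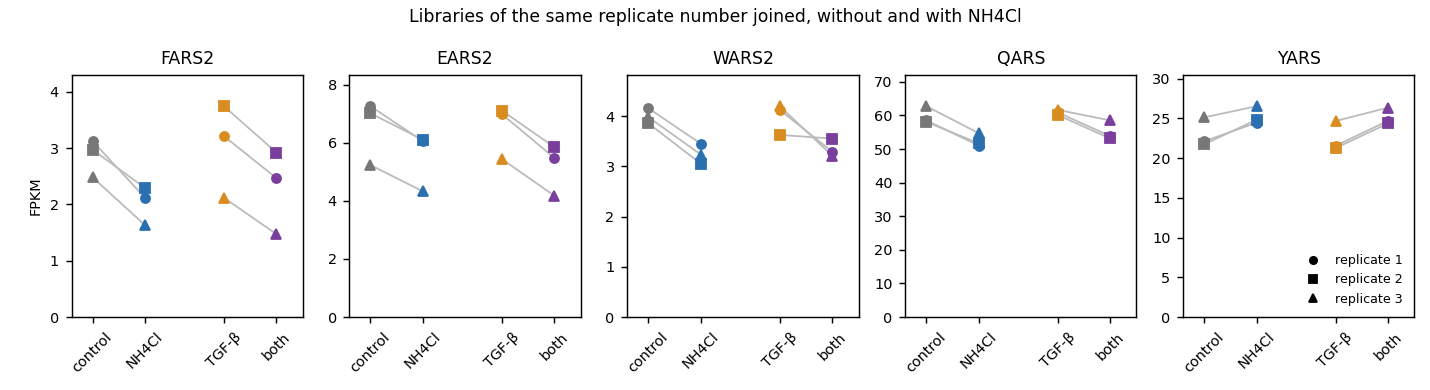
FPKM of FARS2, EARS2, WARS2, QARS and YARS in each of the 12 libraries, by group, with lines joining libraries of the same replicate number. In each pair of same-number libraries the NH4Cl one is lower for FARS2, EARS2, WARS2 and QARS and higher for YARS.

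Counted over all tested members, the block called 5 of 35 in NH4Cl against control, 1 higher and 4 lower, where it called 13.6% of all genes tested, 7.42% higher and 6.14% lower. Beside TGF-β it called 8 of 35, 4 higher and 4 lower, where it called 18.8% of all genes, 10.3% higher and 8.48% lower. Both comparisons called the same 5 members, and 9.91% of all genes were called in both. The members' counts are near these shares and are not a result about the synthetases as a group. AARS, KARS and NARS, for alanine, lysine and asparagine, were called beside TGF-β and not against control. The counts moved with single libraries. Against control the block called 1 member without control replicate 1, where it called 6.29% of all genes. It called 2 without NH4Cl replicate 1 or 2 (7.16% and 5.71% of all genes), 3 without control replicate 2 or 3 (6.05% and 8.04%), and 4 without NH4Cl replicate 3 (11.3%). Beside TGF-β it called 2 members without TGF-β replicate 1 or 2 (10.9% and 10.1% of all genes) or without replicate 1 of both agents (11.4%). It called 3 without replicate 2 of both agents (11.6%), 5 without TGF-β replicate 3 (14.6%) and 9 without replicate 3 of both agents (14.6%). The share of all genes called was thus lower than with all libraries in each of these 12 fits. QARS was called in all 6 of the first and EARS2 in all 6 of the second.

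Without the block, limma called 0 of 35 members in either comparison, where it called 0.381% and 1.03% of all genes tested. At an unadjusted p under 0.05 there were 4 members against control, where 1333 of 12341 genes were, and 5 beside TGF-β, where 1642 genes were. These counts are at the background, and limma voom on recovered reads without the block also called 0 in both. The 4 against control were LARS and MARS, with higher means, and QARS and WARS2, with lower ones. Members whose groups did not overlap were near the background too. This held for 7 members against control, 4 higher and 3 lower, where 17.5% of all genes did not overlap. Beside TGF-β it was 5 members, 3 higher and 2 lower, where 16.3% of all genes did not overlap.

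Directions over same-number pairs were also near the background. Against control, 11 of 35 members were higher and 8 lower in 3 of 3 pairs, where 26.4% of all genes were higher and 25.3% lower. Beside TGF-β, 9 were higher and 6 lower, and 25.2% of all genes were higher and 25.2% lower. The interaction of the treatments, which tests whether the NH4Cl effect differed with TGF-β, called 0 of 35 members with the block and 0 without it, and 0.0% of all genes in both. At an unadjusted p under 0.05 it gave 1 member with the block (TARS2, the highest interaction value at 0.19), where 537 of 12341 genes were, and 0 without it, where 115 genes were. That is no more than the background, and voom called 0.

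Calls with the block rested on which numbers were kept. With the 4 libraries numbered 3 left out, 6 members were called against control, where 9.29% of all genes were called. AARS, NARS, YARS and MARS rose in that fit and QARS and FARS2 fell. Beside TGF-β it called 10 members, where 13.4% of all genes were called, with SARS, AARS, GARS, LARS, NARS, YARS, MARS and TARS2 higher and QARS and EARS2 lower. With libraries numbered 1 left out it called 0 members in both comparisons, and 2.21% and 4.42% of all genes. With libraries numbered 2 left out it called 0 against control and 1 beside TGF-β (EARS2), and 1.77% and 4.7% of all genes.

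A larger share of cytosolic than of mitochondrial members had positive values with NH4Cl, and the values were small. Against control, 14 of 20 cytosolic members had a positive log2 change with a median of 0.06, while 4 of 15 mitochondrial members did, with a median of -0.04. Over all genes tested, 6177 of 12341 were positive and the median was 0.00, and beside TGF-β 6164 were positive. Beside TGF-β, 14 of 20 cytosolic members were positive with a median of 0.05, and 6 of 15 mitochondrial members were, with a median of -0.01. Scaling to TPM gave 14 positive cytosolic members in each comparison and 5 and 6 mitochondrial ones, and centring on library medians gave 11 and 13 cytosolic and 3 and 6 mitochondrial ones. These steps also moved all genes tested, of which 6321 and 6158 were positive on TPM and 5584 and 5894 after centring. Without the libraries numbered 3 the cytosolic medians were 0.09, with 14 of 20 positive, and 0.08, with 17 of 20 positive, and the mitochondrial medians were -0.04, with 3 of 15 positive, and -0.03, with 7 of 15 positive. Without the libraries numbered 2 the cytosolic medians were 0.02 and 0.02, and without those numbered 1 they were 0.07 and 0.04.

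Single libraries moved these medians as well, in fits without the block. Against control the cytosolic median was 0.01 without control replicate 2, 0.03 without NH4Cl replicate 3, 0.10 without NH4Cl replicate 2 and 0.11 without control replicate 3. Beside TGF-β it was 0.08 without TGF-β replicate 3 and 0.09 without replicate 3 of both agents. The cytosolic medians were positive in all 12 of these fits. The mitochondrial median against control ran from -0.0036 without NH4Cl replicate 3, over -0.02 without control replicate 1 and -0.08 without NH4Cl replicate 1, to -0.09 without control replicate 3. Beside TGF-β the mitochondrial median changed sign, to 0.03 without TGF-β replicate 2 or without replicate 3 of both agents, and also to 0.03 over members with a mean of at least 5 FPKM. It was -0.07 without TGF-β replicate 3, -0.06 without replicate 2 of both agents and -0.04 without replicate 1 of both agents.

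Within the numbers the cytosolic pattern was seen in replicates 1 and 2 and not in replicate 3. The cytosolic median change in replicates 1, 2 and 3 was 0.06, 0.10 and -0.0053 against control. Beside TGF-β it was 0.08, 0.09 and -0.04. Over all genes tested the median change in replicate 3 was 0.0092 against control and 0.0024 beside TGF-β. Against control, 15, 14 and 10 of 20 cytosolic members were higher with NH4Cl in replicates 1, 2 and 3, and beside TGF-β 16, 17 and 8 were. Of the 16 mitochondrial members 5, 9 and 5 were higher against control, and 8, 7 and 8 beside TGF-β. The 12 cytosolic members outside the complex had 9 positive changes against control and 10 beside TGF-β, and the 8 in the complex had 5 and 4. Across the 2 comparisons, 13 cytosolic members were positive in both, 5 were negative in both and 2 had opposite signs, and for mitochondrial members these counts were 4, 9 and 2.

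The gap between the compartments in a library, as the difference of median log2 levels, was 2.06 ± 0.255 in control cells, 2.17 ± 0.186 with NH4Cl, 2.01 ± 0.234 with TGF-β and 2.08 ± 0.200 with both agents (SD, n = 3). Between group means the differences were smaller than the spread within groups, in which the 4 libraries numbered 3 had 2.28 to 2.39 and the other 8 had 1.87 to 2.08. Within a number, the gap was larger with NH4Cl in all 6 pairs. It was 1.91, 1.92 and 2.35 in control libraries 1, 2 and 3 and 2.06, 2.08 and 2.39 with NH4Cl, and 1.89, 1.87 and 2.28 with TGF-β and 2.04, 1.91 and 2.30 with both agents. No test was made of this gap. The median of the members' own changes did not follow in every pair. The cytosolic median change was above the mitochondrial one in 5 of 6 pairs, but in replicate 3 beside TGF-β it was -0.04 for cytosolic and 0.0025 for mitochondrial members.

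**Figure D4:**
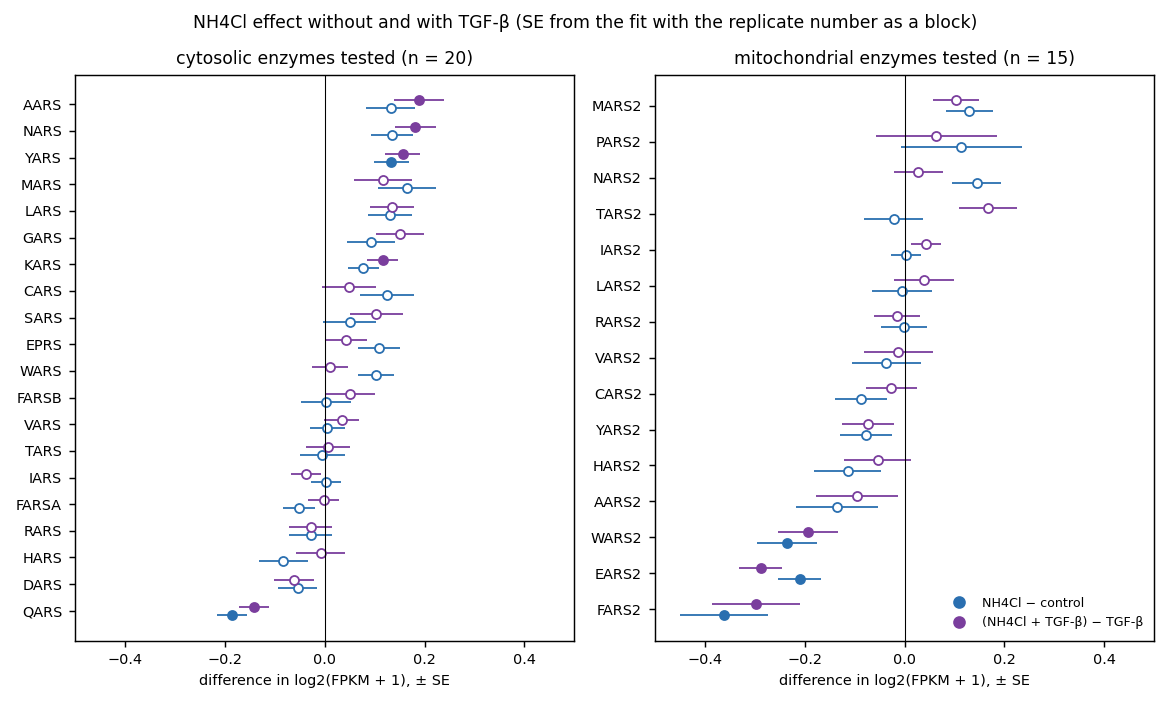
Log2 difference of each tested member with NH4Cl, against control and beside TGF-β, with bars for the SE from the fit with the block and filled points for members it called. FARS2, EARS2 and WARS2 lie lowest, and 14 of 20 cytosolic members lie above 0 in each comparison.

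Pairs for the same amino acid were read with the changes side by side. Of 16 pairs with both genes tested, the cytosolic gene had the higher log2 change in 12 against control and in 12 beside TGF-β. In 7 pairs the cytosolic change was positive and the mitochondrial one negative in both comparisons, namely AARS, CARS, VARS, WARS and YARS with their namesakes, EPRS with EARS2, and FARSB with FARS2. For tryptophan the values were 0.10 for WARS and -0.24 for WARS2 against control, and 0.01 and -0.19 beside TGF-β. Methionine, asparagine and proline went another way, with positive changes in both compartments. For proline, EPRS had 0.11 and PARS2 0.11 against control, and 0.04 and 0.06 beside TGF-β, and neither passed with or without the block. MARS had 0.16 and MARS2 0.13 against control, NARS had 0.13 and NARS2 0.14, and none of these 4 passed the test against control with or without the block. IARS and IARS2 had 0.0022 and 0.0032 against control.

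Several members not called in either comparison with the block had differences as large as those of called members. LARS (leucine) had 28.6, 28.4 and 30.5 FPKM in control libraries and 31.5, 32.6 and 32.0 FPKM with NH4Cl, with no overlap and a log2 difference of 0.13, and the block gave limma adjusted p = 0.0768. MARS had 28.9, 27.4 and 29.7 FPKM in control libraries and 32.4, 32.5 and 31.7 FPKM with NH4Cl, also with no overlap, and the block gave limma adjusted p = 0.0908. DARS, FARSA, HARS, RARS, AARS2, CARS2, HARS2, RARS2, VARS2 and YARS2 had negative values in both comparisons, the lowest being -0.14 for AARS2 against control. GARS, SARS, CARS, EPRS, WARS, FARSB, VARS, IARS2, NARS2, MARS2 and PARS2 had positive values in both, the highest being 0.15 for GARS beside TGF-β. IARS, TARS, LARS2 and TARS2 had opposite signs, and TARS2 had -0.02 against control and 0.17 beside TGF-β, where the block gave limma adjusted p = 0.076. SARS2, in a fit without the filter on level, had -0.07 (SE 0.0888, limma adjusted p = 0.897) against control and 0.04 (SE 0.0888, limma adjusted p = 0.967) beside TGF-β.

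The 3 members called beside TGF-β alone were all cytosolic. AARS had 35.2, 34.5 and 54.2 FPKM with TGF-β and 43.1, 40.6 and 56.2 FPKM with both agents. NARS had 37.1, 36.01 and 37.5 FPKM with TGF-β and 41.6, 41.3 and 42.9 FPKM with both. KARS had 56.1, 56.5 and 57.7 FPKM with TGF-β and 62.3, 59.5 and 63.2 FPKM with both. NARS and KARS did not overlap between these groups, and AARS did because TGF-β replicate 3 was high. For AARS the value without the block was 0.05 without replicate 3 of both agents, 0.09 and 0.08 without TGF-β replicates 1 and 2, and 0.40 without TGF-β replicate 3. The log2 changes with the block and all libraries were 0.19 for AARS (limma adjusted p = 0.0269), 0.18 for NARS (limma adjusted p = 0.0153) and 0.12 for KARS (limma adjusted p = 0.0287). Against control NARS had 0.13 with a limma adjusted p of 0.0589, and the difference between the comparisons passed for none of the 3. When 1 library was left out, these calls were lost without replicate 1 or 2 of both agents or TGF-β replicate 1 or 2 for AARS (limma adjusted p-values up to 0.115). They were lost without replicate 1 or 2 of both agents or TGF-β replicate 2 or 3 for NARS (up to 0.0576), and in every fit but that without TGF-β replicate 2 for KARS (up to 0.109).

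TGF-β for 1 h was compared with control, and no member passed. Limma called 0 of 35 without the block and 0 with it, where it called 0.0% and 0.0081% of all genes, and voom called 0. The count at an unadjusted p under 0.05 was 0 with the block, where 422 of 12341 genes were, and 0 without it, where 103 were. The largest values were -0.10 for TARS2 and 0.08 for MARS2, and 7 of 20 cytosolic and 9 of 15 mitochondrial members were positive. Adding TGF-β to ammonium gave the same count, 0 of 35 with and without the block, where 0.0081% and 0.0% of all genes were called. At an unadjusted p under 0.05 it gave 0 members without the block, where 165 of 12341 genes were, and 1 with it, where 879 were. Voom called 0, and the values ran from -0.07 to 0.12.

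Cells with both agents were also compared with control, which shares its libraries with the comparisons above. Without the block limma called 0 of 35 members, where it called 0.948% of all genes, with 2 members and 1618 of all genes at an unadjusted p under 0.05, and 0 members by voom. With the block it called 8, near the 18.4% of all genes. KARS, NARS, YARS and MARS2 rose and DARS, QARS, EARS2 and WARS2 fell. MARS2, for mitochondrial methionine, had a log2 change of 0.19 (limma adjusted p = 0.0219). EARS2 had the lowest value at -0.28 (limma adjusted p = 0.00236). With 1 library left out the block called EARS2 alone without control replicate 1 (10.6% of all genes) or without replicate 1 of both agents (11.9%). It called 2 members without control replicate 2 (9.47%), control replicate 3 (11.9%) or replicate 2 of both agents (11.8%), and 7 without replicate 3 of both agents (13.9%), and EARS2 was called each time. MARS2 was in none of these 6 sets, but it was called with the libraries numbered 3 left out, among 9 members, where 13.0% of all genes were called.

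Genes that work beside the synthetases were read from lists of their own. Without the block limma and voom called 0 genes of these lists in NH4Cl against control, beside TGF-β and in TGF-β against control, and no list had more than 1 gene at an unadjusted p under 0.05. The background for the counts in these lists is the share of all genes called with the block, 13.6% against control (7.42% higher and 6.14% lower) and 18.8% beside TGF-β (10.3% and 8.48%). With the libraries numbered 3 left out the block called 9.29% and 13.4% of all genes. The 3 scaffold genes of the complex had 0 calls with the block and all libraries, and with the libraries numbered 3 left out AIMP1 was called beside TGF-β (0.18, limma adjusted p = 0.034). Their levels were ordered, with AIMP2 at a control mean of 34.0, AIMP1 at 18.3 and EEF1E1 at 5.60 FPKM. The amidotransferase genes QRSL1, GATB and GATC, which complete the glutamine tRNA after EARS2, and the formylase gene MTFMT had 0 of 4 called. Mitochondrial elongation factors had 0 of 4, and proofreading genes had 0 of 2 tested. Genes of tRNA maturation had 0 of 7 against control and 1 of 7 beside TGF-β, which was XPOT, the tRNA exporter gene, with 0.13 (limma adjusted p = 0.0287). The XPOT call was lost with the libraries numbered 3 left out (0.11, limma adjusted p = 0.132), and when 1 library was left out it was kept only without TGF-β replicate 1 or replicate 1 of both agents. Of the cytosolic elongation factors, 1 of 4 fell against control, which was EEF1D with a log2 change of -0.14 (limma adjusted p = 0.0345), and 0 of 4 were called beside TGF-β, where EEF1D had -0.08 (limma adjusted p = 0.157). With the libraries numbered 3 left out 0 of 4 were called in both, and the EEF1D call was lost in each of the 6 fits without 1 library, with limma adjusted p-values of 0.0735 to 0.137. EEF1G was not analysed here.

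The amino acid response list had 22 of 24 genes tested, and with the block 4 rose and 0 fell against control, where 7.42% of all genes were called higher and 6.14% lower. Beside TGF-β 8 rose and 1 fell, where 10.3% of all genes were called higher and 8.48% lower. TRIB3, a pseudokinase induced by ATF4, had 84.4, 76.7 and 172 FPKM in control libraries and 128, 130 and 224 FPKM with NH4Cl. STC2, a secreted glycoprotein, had 11.6, 10.8 and 25.5 FPKM in control libraries and 15.1, 14.4 and 29.8 FPKM with NH4Cl. Both were highest in replicate 3, where control exceeded the treated libraries 1 and 2, and both were higher with NH4Cl within every number. With the libraries numbered 3 left out, 5 genes of the list rose against control and 9 beside TGF-β, and 0 fell. That fit called 9.29% of all genes against control and 13.4% beside TGF-β. The log2 change with the block was 0.58 for TRIB3 (limma adjusted p = 0.00229) and 0.32 for STC2 (limma adjusted p = 0.00197). When 1 library was left out of the blocked fit, 3 of the 4 genes called against control kept their calls in all 6 fits (TRIB3, STC2 and CEBPB), and the other, PSPH, lost its call in 4 of them, with limma adjusted p-values of 0.0824 to 0.0928. Beside TGF-β 4 of the 8 higher genes kept their calls in all 6 fits (TRIB3, STC2, CEBPB and MTHFD2). The other 4, PSPH, DDIT4, DDIT3 and XPOT, each lost theirs in 3 or 4 fits, and all 4 did so without replicate 2 of both agents and without TGF-β replicate 2. SLC7A5, the lower gene, kept its call in 1 of 6. TRIB3 and STC2 were called in all of these blocked fits, with changes against control of 0.50 to 0.66 and 0.28 to 0.37. Without the block and with all libraries neither was called. The limma adjusted p-values of TRIB3 and STC2 were then 0.7185 and 0.9048 against control, and 0.5998 and 0.877 beside TGF-β. The STC2 value against control without the block was -0.0039 without NH4Cl replicate 3 and 0.69 without control replicate 3, and the TRIB3 value was 0.31 and 0.94. Beside TGF-β the unblocked STC2 value was -0.11 without replicate 3 of both agents and 0.65 without TGF-β replicate 3. With the block, ATF4 itself had 0.06 against control (limma adjusted p = 0.493) and 0.05 beside TGF-β (limma adjusted p = 0.499). ASNS, asparagine synthetase and a classical member of the response, had -0.02 against control (limma adjusted p = 0.938). Beside TGF-β ASNS had 0.17 (limma adjusted p = 0.266), and neither gene was called in either comparison.

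Among the marker lists, 1 of 9 epithelial genes rose and 1 fell with NH4Cl against control with the block, where 13.6% of all genes were called, 7.42% higher and 6.14% lower. VIL1, the villin gene, had a log2 change of 0.18 (limma adjusted p = 0.0382), a call kept in 1 of the 6 fits without 1 library, that without NH4Cl replicate 3. KRT19, a keratin gene, had a log2 change of -0.39 (limma adjusted p = 0.000131), from 563, 537 and 764 FPKM in control libraries to 422, 422 and 570 FPKM with NH4Cl. Beside TGF-β 1 epithelial gene rose and 2 fell, where 18.8% of all genes were called, 10.3% higher and 8.48% lower. EPCAM had a log2 change of 0.19 (limma adjusted p = 0.0108), CDH1, the E-cadherin gene, had -0.19 (limma adjusted p = 0.0254) and KRT19 had -0.29 (limma adjusted p = 0.000518). The CDH1 call was lost in 4 of the 6 fits without 1 library, with limma adjusted p-values of 0.075 to 0.102, and those of EPCAM and KRT19 were kept in all 6. The unblocked values beside TGF-β were -0.05 for CDH1 and -0.12 for KRT19 without TGF-β replicate 3. They were -0.29 and -0.44 without replicate 3 of both agents. Against control the unblocked KRT19 value was -0.24 without control replicate 3 and -0.54 without NH4Cl replicate 3. With the libraries numbered 3 left out, 2 rose (VIL1 and CDX1) and 1 fell (KRT19) against control, where 9.29% of all genes were called. Beside TGF-β that fit called 3 higher (EPCAM, VIL1 and CDX1) and 1 lower (KRT19), where 13.4% of all genes were called. CDH1 was not called in either comparison of that fit. In the endothelial list VWF was the only gene tested, with a log2 change of 0.46 against control (limma adjusted p = 0.00423) and 0.52 beside TGF-β (limma adjusted p = 0.00181). It had 1.54, 1.66 and 3.90 FPKM in control libraries and 2.47, 2.75 and 5.67 FPKM with NH4Cl. Both VWF calls were kept in every blocked fit that left out 1 library. The unblocked VWF value against control was 0.17 without NH4Cl replicate 3 and 0.77 without control replicate 3. Beside TGF-β it was 0.15 without replicate 3 of both agents and 0.87 without TGF-β replicate 3. The summed endothelial level was 1.72, 1.93 and 4.17 FPKM in control libraries and 2.70, 2.99 and 5.86 FPKM with NH4Cl, nearly all of it VWF. The part of these markers in the synthetase values was not tested, and 0 of 2 tested fibroblast genes were called with all libraries. With the libraries numbered 3 left out LUM was called against control (0.24, limma adjusted p = 0.0499).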

How the data were processed

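RNA was measured in 12 HCT116 libraries. The authors deposited FPKM per gene, and the submitters' processing notes name Trimmomatic 0.36, STAR 2.5.2b, featureCounts of Subread 1.5.2 and DESeq2. The study's methods name HTSeq as the counter instead, and which of them made the deposited values is not known. Filters and the strand setting are not stated. Doses and times come from the study's methods. The 25733 genes were matched to GENCODE 29, and reads per gene were recovered from FPKM and exon length. The members and lists were chosen with earlier results of these data known, and the list is not a complete catalogue of these enzymes. A pseudocount of 1 was added to FPKM before taking log2, and 12341 genes averaging 1 FPKM or more entered the tests. Comparisons used limma 3.58.1 with an intensity trend in R 4.3.3, over all 12 libraries with no block, two-sided, with Benjamini-Hochberg adjustment over all genes tested and a threshold of 0.05. The steps were tested on simulated data. Tables and figures were made with Python 3.11.15, pandas 2.3.3 and matplotlib 3.10.9.

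Whether replicate numbers pair libraries across groups was checked by correlating log2 values across genes after removing each group's mean. Across genes, r was 0.349 to 0.774 in the 18 pairs of the same number (0.349 to 0.431 for number 1, 0.446 to 0.533 for number 2 and 0.702 to 0.774 for number 3) and -0.655 to 0.486 in the 36 pairs of different number and group, and genes are not independent replicates. Full statistics were given for members past the threshold in NH4Cl against control or both agents against TGF-β without a block, and for members past it in both with the block. In other lists the 2 genes with the largest change among those called against control were named. The members called in 1 comparison, LARS, MARS, MARS2, TARS2, XPOT, EPCAM, CDH1, CDX1, AIMP1, LUM, CEBPB, PSPH, MTHFD2, DDIT4, DDIT3, SLC7A5, ATF4 and ASNS were named after their values were seen. Alternatives were the pseudocount, the filter, TPM, median centring, the block, the trend, the groups in the model, libraries left out and the motif. Voom on recovered reads, and the block with 1 library left out in turn, were chosen after seeing the data.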

Additional observations from a re-analysis of the deposited data

How the results depend on the processing

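Without a block, 0 members were called in every comparison under every alternative, leave-one-out included. With the replicate block the counts called were 5 in NH4Cl against control, 8 in both agents against TGF-β and 8 in both agents against control. The shares of all genes called were 13.6%, 18.8% and 18.4%. With the block the counts were, in that order, 4, 7 and 5 on TPM (1477, 2041 and 2052 of 12341 genes) and 4, 8 and 6 after median centring (13.5%, 19.2% and 18.7% of all genes). They were 6, 10 and 9 without libraries numbered 3 (9.29%, 13.4% and 13.0%) and 9, 10 and 11 in voom (18.2%, 24.2% and 23.8%). Without libraries numbered 2 the block gave 0, 1 and 1 (1.77%, 4.7% and 5.06%), and without those numbered 1 it gave 0 in each (2.21%, 4.42% and 5.08%). Leaving out 1 library with the block gave 1 to 4, 2 to 9 and 1 to 7. The cause of these differences was not tested. The gap between the compartments was 2.08 log2 units and 1.69 at a mean of at least 5 FPKM, and the cytosolic gene was higher in 15 of 17 pairs and then in 9 of 11, where fewer genes enter by construction. With TGATGCAA alone the share of cytosolic windows was 37.5%, as before. The 5 named members were chosen by their calls with the block, and the alternatives refit the same libraries. A kept direction was therefore largely set by that choice. None of the 5 reversed direction in 20 or 21 alternatives each, but the log2 changes moved. Against control and beside TGF-β they ran from -0.51 to -0.27 and -0.47 to -0.105 for FARS2, and from -0.34 to -0.07 and -0.39 to -0.17 for EARS2. They ran from -0.30 to -0.20 and -0.28 to -0.14 for WARS2, from -0.22 to -0.15 and -0.18 to -0.12 for QARS, and from 0.096 to 0.20 and 0.12 to 0.22 for YARS. SARS2, at 32 to 51 reads, is limited by depth, and the part of its shared exon sequence in that low count was not tested.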
